A study of Mus musculus with 10 samples.

Results

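Genes of the mRNA cleavage and polyadenylation machinery, 10 in number, were followed in gastrocnemius muscle of diet-induced obese mice after inhibition of miR-22, out of 21160 genes in the count table. They were taken as a list of names, *Nudt21*, *Cpsf2*, *Cpsf6*, *Cpsf7*, *Cstf2*, *Cstf2t*, *Cstf3*, *Pcf11*, *Fip1l1* and *Pabpn1*. All mice were male C57BL/6J animals without a transgene that went on the high-fat diet D12492i at 9 weeks of age, for 9 weeks and, by the labels, until they weighed more than 40 g, and stayed on it afterwards. During 14 further weeks, 5 mice were injected under the skin once a week with the anti-miR-22 antisense oligonucleotide RES-010 at 10 mg/kg (ASO group), and 5 mice with 0.9% saline in its place (CTRL group). The study's record of body weights puts some CTRL mice below that weight at the start of treatment and all ASO mice above it, so starting weight and treatment cannot be fully told apart. The labels give the age at sampling as 30 weeks, slightly less than the stated weeks add up to. A saline control separates the treated from the untreated state, so an effect of the sequence and an effect of any oligonucleotide of this chemistry cannot be told apart. Muscle is a mixture of fibers with vessels, nerve, fat and immune cells, and fewer cells of a type and less RNA per cell cannot be told apart in it.

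The 3′ end of an mRNA is made by cutting the nascent transcript at a poly(A) site and adding a poly(A) tail. The hexamer upstream of the cut is read by the cleavage and polyadenylation specificity factor (CPSF), GU-rich sequence downstream of it by the cleavage stimulation factor (CstF), and UGUA motifs before it by cleavage factor I (CFIm), whose small subunit is the product of *Nudt21*. Many genes carry several poly(A) sites, and the levels of these factors are known to influence which is used: loss of CFIm or of the nuclear poly(A)-binding protein PABPN1 favors sites near the stop codon in cultured cells, and PABPN1 is the gene product mutated in oculopharyngeal muscular dystrophy. The question put to the data was whether the transcripts of these factors changed in a muscle in which counts moved between upstream and distal 3′ ends.

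What the table counts bears on that question. Each row is the last 500 bp, or less, of the 3′UTR of an annotated transcript, called a segment here, and a gene's level is the sum over its segments in CPM (counts scaled to a common library size). Library totals were between 1606909 and 2116720 counts in CTRL and between 2239186 and 2632560 counts in ASO, so every ASO library was deeper than every CTRL library. The 10 factors have 36 segments in the table, 8 of which hold no count, and 4622 counts in all. A total of 11523 segments of the table share their coordinates with another segment and hold 0 counts, so a gene with a low value need not be silent. Neither miR-22 nor its host transcript is counted, which leaves the target of the oligonucleotide unchecked.

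Matches to the miRNA and poly(A) signals were read from the sequence of the genes. Mature miR-22-3p (RefSeq, chr11:75463772-75463793, plus strand, GRCm38.p6) is given with its seed, bases 2 to 8, in capitals, followed by the only matches to that seed in the 10 factors, searched in the longest 3′UTR that the annotation gives, with the match GGCAGCT in capitals.
mmu-miR-22-3p: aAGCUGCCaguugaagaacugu
Cstf2: tgtgttggttttGGCAGCTgtcttgactta
Pcf11: ccctgccagccaGGCAGCTgctctcacccg
The match of *Cstf2* lies at chrX:132986445-132986474 on the plus strand of GRCm39, inside a counted 3′UTR segment of the canonical transcript. The match of *Pcf11* lies at chr7:92318048-92318077 on the minus strand, in the first intron of the canonical transcript, where a short transcript that ends early has its 3′UTR. It falls outside the counted segments of the gene. No other 3′UTR of a gene was searched, so that of the canonical *Pcf11* transcript was left out. Thus 2 of the 10 factors had a match, against 21.7% of 7781 tested genes with an annotated 3′UTR, searched on the transcribed strand. The heptamer match is a description of the letters and not evidence of a site.

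Poly(A) signals are shown for the 4 factors whose segments are compared further on, as 30 bases of GRCm39 around the hexamer closest to the annotated canonical 3′ end, with the hexamer in capitals.
Nudt21: ccagatgcttcgATTAAAggtgtaagccac
Cpsf7: atatttttaaatAATAAAtggggtgtgagc
Pcf11: ctctggtttgtgAATAAAattgagcaactc
Pabpn1: taatgtgtcatgAATAAAgttgttttatga
They lie at chr8:94741849-94741878 (minus strand), chr19:10525060-10525089 (plus strand), chr7:92292671-92292700 (minus strand) and chr14:55136347-55136376 (plus strand). All 4 lie downstream of the most distal counted segment of their gene, so they are not inside the segments compared further on. Within the last 50 bases, 8 of the 10 factors had AATAAA, *Nudt21* had ATTAAA alone, and *Cstf2t*, an intronless relative of *Cstf2*, had neither. Among 7810 canonical ends of tested genes, 61.6% had AATAAA and 14.9% had ATTAAA alone. The DNA form of the CFIm motif, TGTA, occurred at least once in the last 100 bases of 5 factors and in 54.4% of all these ends. It occurred at least 2 times in *Nudt21* and *Cpsf7*, both of which encode CFIm subunits, and in 19.5% of all ends. All of these motifs were searched on the transcribed strand only.

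Of the 10 factors, 8 passed the filter on low counts. Summed over segments, 1 of the 8 was higher in ASO and 0 were lower (edgeR quasi-likelihood test with Benjamini-Hochberg adjustment over all 7819 tested genes), and the counts were the same at an unadjusted p of 0.05 and in DESeq2, while limma-voom called 0 in either direction. The background in this muscle was 29.2% of tested genes past the threshold of an adjusted p of 0.05, 11.7% higher and 17.5% lower. This split depended on the scaling, with 916 genes higher and 1365 lower with TMM, 528 and 1821 with total counts, and 1261 and 1207 with upper-quartile scaling. In 4 factors the log2 fold change was above 0 and in 4 below, with a median of 0.05 against -0.03 for all tested genes. In none of the 8 were the CPM values of the groups separate, whereas they were in 21.4% of all tested genes. For the 7 factors that did not pass, the 95% interval of the log2 fold change lay within 1 unit of 0 in every case, as it did for 67.6% of the 5538 tested genes that did not pass.

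**Figure D1:**
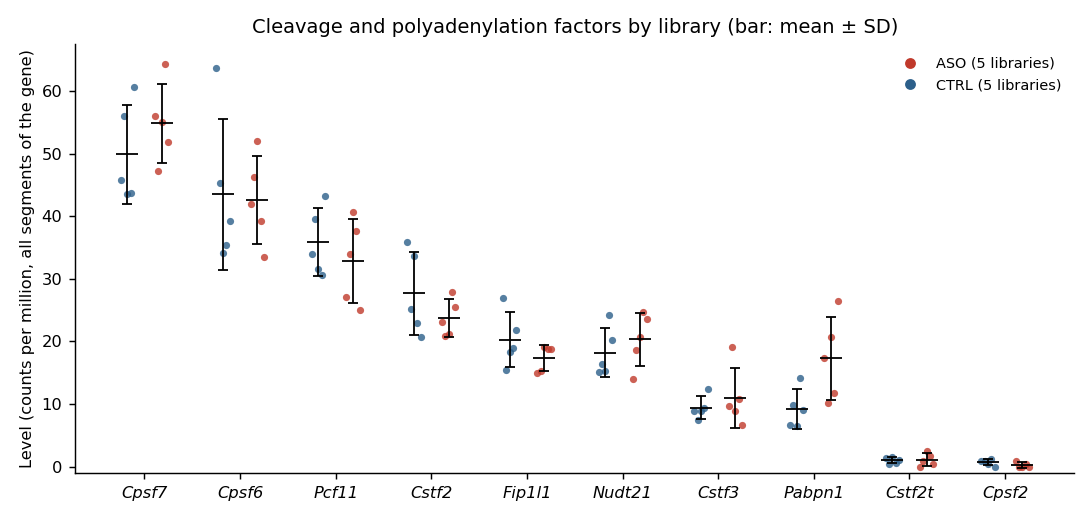
Level of each of the 10 factors, in CPM summed over segments, by library (5 CTRL in blue, 5 ASO in red), with the mean and SD as bars. The groups overlap in all of them, Pabpn1 has the clearest offset between group means (17.3 against 9.19 CPM), and Cstf2t and Cpsf2 lie close to 0.

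*Pabpn1* encodes the nuclear poly(A)-binding protein that stimulates poly(A) tail synthesis. It was at 17.4, 10.2, 20.7, 11.7 and 26.4 CPM in ASO replicates 1 to 5, and at 6.60, 9.79, 6.42, 14.2 and 8.98 CPM in CTRL replicates 1 to 5. ASO replicates 2 and 4 fell within the range of the CTRL group, and the other 3 ASO libraries were above all CTRL libraries. Levels averaged 17.3 ± 6.64 CPM against 9.19 ± 3.14 CPM (n = 5 each, SD). The log2 fold change was 0.91 with an SE of 0.32 and a 95% interval of 0.23 to 1.60 (edgeR adjusted p = 0.046). The counts behind it were few, 193 in the 5 ASO libraries together and 88 in the 5 CTRL libraries. The call was lost when ASO replicate 1, 3 or 5 (adjusted p = 0.065, 0.083 and 0.109) or CTRL replicate 1, 2, 3 or 5 (adjusted p = 0.092, 0.069, 0.094 and 0.085) was left out, and in edgeR with total counts as the scale (adjusted p = 0.088), without the low-count filter (0.057) and in limma-voom (0.063). It was kept in DESeq2 (adjusted p = 0.035) and when all libraries were drawn down to the smallest (edgeR adjusted p = 0.024).

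The place of these counts matters for *Pabpn1*. Most of them, 69.0%, fell on 1 segment, chr14:55134740-55135014 (plus strand, GRCm39), which lies entirely in the last of the 6 introns of the canonical transcript and is the 3′UTR of an alternative transcript. Retention of the 3′-terminal intron of PABPN1 has been described as a way by which the protein limits its own expression. On this intronic segment alone the level was 11.1 ± 4.89 CPM in ASO and 7.47 ± 3.19 CPM in CTRL, a log2 fold change of 0.61 with an SE of 0.37 (edgeR over single segments, adjusted p = 0.20). The most distal counted segment, chr14:55135514-55135626 in the last exon, ends before the poly(A) signal of the canonical 3′ end (chr14:55136347-55136376). No counted segment of the gene reaches that signal, so the shares given here are not shares of all its ends. The most distal segment has 13 bases that no other segment shares and overlaps one of the read-through gene *Gm20521*, so its counts are uncertain. It held 6, 5, 14, 10 and 12 counts in ASO replicates 1 to 5 and 5, 3, 3, 2 and 0 counts in CTRL replicates 1 to 5, too few to pass the filter. Its share of the gene's counts was 24.4% in ASO and 14.8% in CTRL, while the share of the intronic segment was 63.7% and 80.7%.

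The genes whose log2 level over the 10 libraries was most like that of *Pabpn1*, among 4600 tested genes with a mean of at least 50 counts, were *Cxxc5* (Pearson r = 0.96), *Ubald2* (0.93) and *Abhd17a* (0.93). With the group means taken out, r was 0.93, 0.87 and 0.86. These values describe 10 libraries that differ in depth and group, and carry no test.

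The 3 subunit genes of CFIm were each at a similar level in both groups. *Nudt21*, whose product binds UGUA, was at 14.0, 18.7, 20.7, 24.6 and 23.6 CPM in ASO and at 15.1, 16.3, 15.3, 24.2 and 20.2 CPM in CTRL. The groups overlapped over nearly their whole range, and the log2 fold change was 0.16 with an SE of 0.21 (adjusted p = 0.59; -0.016 with total counts as the scale), with an interval that spans 0.814-fold to 1.54-fold. *Cpsf6*, the large CFIm subunit that is bound by HIV capsid, was at 42.6 ± 7.02 CPM in ASO and 43.5 ± 12.1 CPM in CTRL, a log2 fold change of -0.03 with an SE of 0.19 (adjusted p = 0.91), whose sign changed with the scaling. Its highest library was CTRL replicate 1 with 63.7 CPM and its lowest ASO replicate 5 with 33.5 CPM. *Cpsf7*, the alternative large subunit, was at 56.0, 47.2, 55.0, 64.3 and 51.9 CPM in ASO and at 45.7, 56.0, 43.5, 43.7 and 60.6 CPM in CTRL. The log2 fold change was 0.14 with an SE of 0.15 (adjusted p = 0.50; -0.038 with total counts as the scale), the narrowest interval of the 8, from 0.884-fold to 1.37-fold.

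Among the CstF genes, *Cstf2* encodes the RNA-binding subunit. It was at 23.2, 20.8, 21.1, 28.0 and 25.5 CPM in ASO and at 35.8, 25.2, 33.6, 23.0 and 20.8 CPM in CTRL. CTRL replicates 1 and 3 were above all ASO libraries and replicate 5 was just below the lowest of them, and the log2 fold change was -0.23 ± 0.19 (SE, adjusted p = 0.39). The segment that holds its miR-22 seed match, chrX:132986296-132986795, was at 9.67 ± 2.82 CPM in ASO and 12.8 ± 3.08 CPM in CTRL, a log2 fold change of -0.37 with an SE of 0.27 (edgeR over single segments, adjusted p = 0.28). The distal segment of *Cstf2* overlaps a segment of *Nox1* on the opposite strand and has 101 bases of its own, and the sources used here name no strand option for the counting, so the 2 genes are uncertain there. The genes most similar to *Cstf2* over the 10 libraries were *Prdx6* (r = 0.93), *Lpl* (0.86) and *Lbh* (0.85), and r was 0.94, 0.84 and 0.84 with the group means taken out.

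*Cstf3*, which holds the CstF complex together, was at 11.0 ± 4.78 CPM in ASO and 9.42 ± 1.80 CPM in CTRL. ASO replicate 2 reached 19.1 CPM and the other 9 libraries were between 6.60 and 12.4 CPM. The log2 fold change was 0.23 with an SE of 0.30 (adjusted p = 0.58), and it was -0.04 without ASO replicate 2. *Cstf2t* had 0 to 6 counts per library, 13 in ASO and 10 in CTRL in all, and could not be tested. Testis is the tissue for which this gene is best known.

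*Cpsf2*, a scaffold subunit of CPSF, was also too low, with 3 counts in the 5 ASO libraries and 7 in the 5 CTRL libraries. *Fip1l1*, which links CPSF to poly(A) polymerase, was at 17.4 ± 2.07 CPM in ASO and 20.3 ± 4.36 CPM in CTRL, a log2 fold change of -0.22 with an SE of 0.19 (adjusted p = 0.42). Nearly all of its counts, 97.0%, fell on a segment of 159 bp around the stop codon, 2655 bp upstream of its most distal annotated end. *Pcf11*, which couples cleavage to the release of RNA polymerase II, was at 32.8 ± 6.69 CPM in ASO and 35.8 ± 5.41 CPM in CTRL. The log2 fold change was -0.12 with an SE of 0.17 (adjusted p = 0.63).

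**Figure D2:**
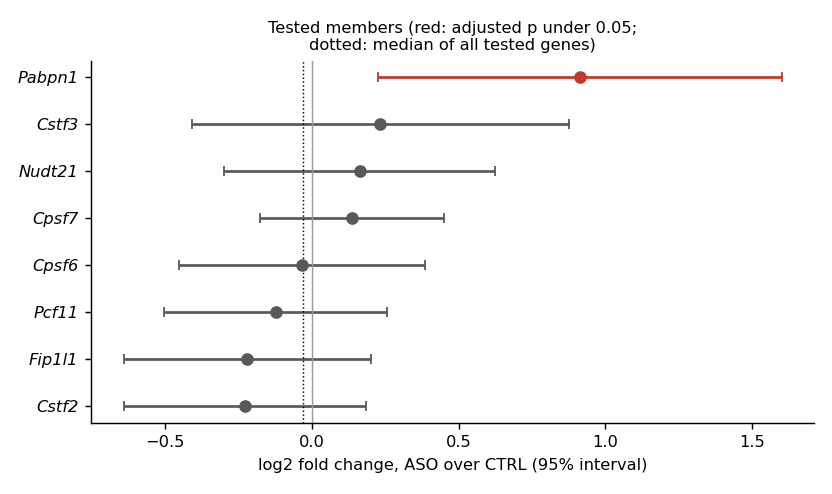
Log2 fold change, ASO over CTRL, of the 8 factors that passed the low-count filter, with 95% intervals. Pabpn1 (0.91) is the only one whose interval lies off 0, and the other 7 intervals all lie within 1 unit of 0, which is drawn as a line beside the median of all tested genes (dotted).

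Levels between genes can be compared only per length, here as CPM per 1000 bases that are unique to the largest segment of each gene, in the CTRL group. On that scale the order was *Cstf2* (130.5 ± 43.5, SD, n = 5), *Fip1l1* (124.9 ± 25.2), *Cpsf7* (105.7 ± 16.5), *Nudt21* (103.9 ± 18.5), *Cpsf6* (71.0 ± 23.7), *Pcf11* (53.8 ± 11.3), *Pabpn1* (47.5 ± 20.3), *Cstf3* (18.8 ± 3.60), *Cstf2t* (2.03 ± 0.933) and *Cpsf2* (1.42 ± 0.936). Each gene overlapped with the next in this order except *Cstf3*, whose lowest CTRL library was above the highest of *Cstf2t*. The order depends on the segment chosen. Only the largest segment enters, which understates genes with several ends, and a short unique stretch raises the value, since a read pair need only reach it. The place of *Cstf2* rests on 101 unique bases, and its other large segment, with 500 unique bases and 43.2% of its counts, gave 25.7 ± 6.16.

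Counts of the whole muscle moved toward distal segments, and this was set beside the levels of the factors. In each library, the counts of a gene's most distal segment were divided by those of its segments at least 1000 bp upstream, as a log2 ratio, for 1575 genes, and its median over genes served as an index. The index was 1.18, 1.20, 1.69, 1.43 and 1.43 in ASO replicates 1 to 5 and 0.40, 0.49, 0.00, -0.16 and -0.44 in CTRL replicates 1 to 5. The groups were separate, with a difference of 1.33 (two-sided exact permutation test, n = 5 each, p = 0.0079, the smallest that 252 labellings give). Of the 1575 genes, 1378 had a higher mean ratio in ASO. The index describes where counts fall and is not a measure of poly(A) site use. The paper limited counting to 3′ ends because of biases in sequencing coverage. The parts of poly(A) site use, coverage, RNA quality and reads from introns in the index difference were not tested. The highest index, in ASO replicate 3, went with 20.7 CPM of *Pabpn1* and 20.7 CPM of *Nudt21*, and the lowest, in CTRL replicate 5, with 8.98 and 20.2 CPM. Because the index separates the groups completely, with 5 libraries in each, no correlation of a factor with the index was computed. With the index as a covariate, 0 of the 7819 genes passed in edgeR in either direction (170 higher and 268 lower at an unadjusted p of 0.05), so treatment and index cannot be told apart.

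Of the factors, *Cpsf7*, *Cpsf6* and *Pcf11* had enough counts on both sides to be among the 1575 genes. *Cpsf7* moved toward its distal end. The log2 ratio was 2.20, 2.36, 2.99, 2.48 and 1.67 in ASO replicates 1 to 5 and 0.77, 1.41, 0.15, 0.54 and 0.17 in CTRL replicates 1 to 5, so that every ASO library was above every CTRL library. That held for 49.3% of all 1575 genes, and the difference of 1.73 in *Cpsf7* was larger than in 62.7% of them, near the middle of a distribution with a median of 1.28 and quartiles of 0.53 and 2.15.

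**Figure D3:**
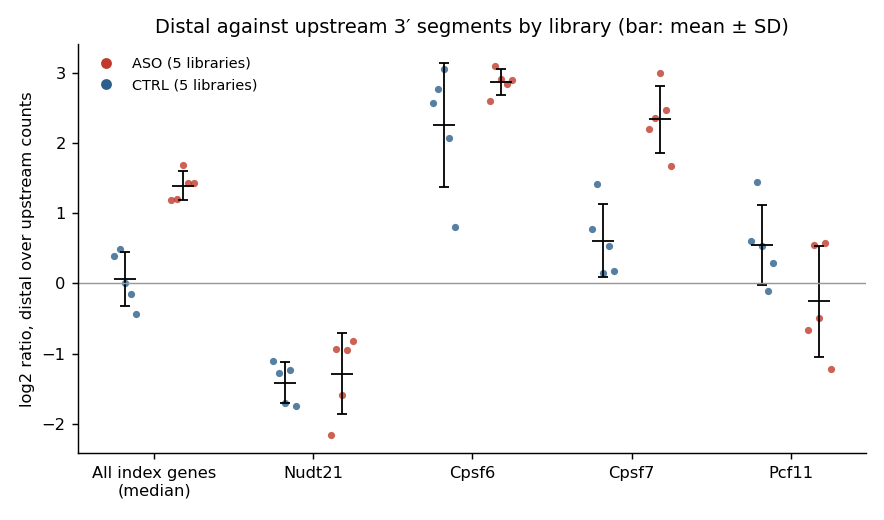
Log2 ratio of distal to upstream counts by library (CTRL in blue, ASO in red, bars for mean and SD), as the median of 1575 genes and for the 4 factors with counts at both ends; 0 marks equal counts. The groups are separate for the median and for Cpsf7 and overlap for Cpsf6, Pcf11 and Nudt21, and Pcf11 is lower on average in ASO.

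The upstream counts of *Cpsf7* came from chr19:10518208-10518434 (plus strand, GRCm39), a segment of 227 bp that begins with 5 bases of an exon and otherwise lies in the last of the 9 introns of the canonical transcript, 6583 bp before the distal end. It held 9, 8, 9, 12 and 11 counts in ASO replicates 1 to 5 and 15, 17, 18, 15 and 23 counts in CTRL replicates 1 to 5, and the CPM of the groups did not overlap. Its share of the gene's counts was 7.89% in ASO and 18.1% in CTRL. Measured against the rest of the gene it was used less in ASO, by a log2 change of -0.83 (edgeR diffSpliceDGE, adjusted p = 0.0072), and it was the 1 of 10 tested segments of 4 factors to pass, against 30.5% of 5380 segments (8.05% used more and 22.4% used less). This call was kept in each fit that leaves out a library (adjusted p of 0.0063 to 0.025).

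The 2 segments at the end of *Cpsf7* overlap each other, and each was judged by 251 bases of its own. The more distal, chr19:10524518-10525017, was at 20.8, 18.3, 31.7, 28.8 and 17.0 CPM in ASO and at 12.3, 21.5, 9.88, 13.0 and 14.6 CPM in CTRL. Only CTRL replicate 2 reached into the ASO range. In a fit of single segments that was added after seeing the data, it was higher in ASO (log2 fold change 0.76, SE 0.26, adjusted p = 0.035) and the intronic segment lower (-1.02, SE 0.27, adjusted p = 0.0085), while 15.9% of 10658 segments were higher and 24.7% lower. Against the rest of the gene the distal segment did not pass in edgeR (adjusted p = 0.13), and did in limma's diffSplice (adjusted p = 0.0026). The segment between them, 251 bp before the distal end, was at 27.2 ± 4.84 CPM in ASO and 26.5 ± 4.15 CPM in CTRL (log2 fold change 0.07, adjusted p = 0.77). Changes in opposite directions at the 2 ends thus stood beside a gene total with a log2 fold change of 0.14.

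*Pcf11* lay on the other side of the distribution. Its log2 ratio was -0.67, 0.54, -0.49, 0.57 and -1.22 in ASO replicates 1 to 5 and 0.61, 1.44, 0.53, -0.11 and 0.29 in CTRL replicates 1 to 5. ASO replicates 1, 3 and 5 were below all CTRL libraries, and the other ASO libraries were within their range. The difference was -0.80, and 3.17% of the 1575 genes had a lower one. A mean ratio lower in ASO was found in 197 of them, and all ASO libraries lay below all CTRL libraries in 1.52%. The upstream side was the segment chr7:92317392-92317891 (minus strand) in the first of 15 introns, 24641 bp before the distal end. Premature polyadenylation in the first intron of PCF11 is known as a means by which the gene holds down its own full-length transcript.

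That early-ending segment of *Pcf11* held 13, 17, 34, 18 and 24 counts in ASO and 11, 10, 13, 13 and 13 counts in CTRL. As CPM it was 6.28, 7.22, 14.4, 7.51 and 11.3 in ASO and 5.19, 4.66, 6.42, 7.67 and 7.30 in CTRL, with 3 ASO libraries inside the CTRL range. Its share of the gene's counts was 28.3% in ASO and 17.1% in CTRL, and the usage test gave a log2 change of 0.48 that did not pass in edgeR (adjusted p = 0.13) and did in limma's diffSplice (0.046). In the fit of single segments the log2 fold change was 0.63 with an SE of 0.30 (adjusted p = 0.11). The 2 segments of the last exon had log2 fold changes of -0.37 (adjusted p = 0.26) and -0.15 (0.75). A further segment of the first intron, 25678 bp before the distal end, was at 3.19 ± 1.25 CPM in ASO and 4.03 ± 1.70 CPM in CTRL.

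*Cpsf6* had 85.2% of its counts on the most distal segment, chr10:117180578-117181077 (minus strand), which lies beyond the end of the canonical transcript. Its log2 ratio was 2.87 ± 0.18 in ASO and 2.26 ± 0.89 in CTRL (SD, n = 5 each), and the 0.80 of CTRL replicate 5 stood below the other 4 CTRL libraries, which were between 2.08 and 3.06. The segment 10853 bp upstream, in the 3′UTR of the canonical transcript, held 0 to 2 counts in the ASO libraries and 3 to 6 in the CTRL libraries, too few for the test, and is named after its values were seen. *Nudt21* was not among the 1575 genes because its upstream segment has 124 bases of its own. Measured in the same way, its ratio was -1.29 ± 0.57 in ASO and -1.41 ± 0.29 in CTRL, with complete overlap of the CTRL range by the ASO range. The usage test gave log2 changes of 0.09 and -0.04 for its 2 segments (adjusted p = 0.82 and 0.92), and 0.09 and -0.10 for those of *Cstf2* (0.80 and 0.77).

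**Figure D4:**
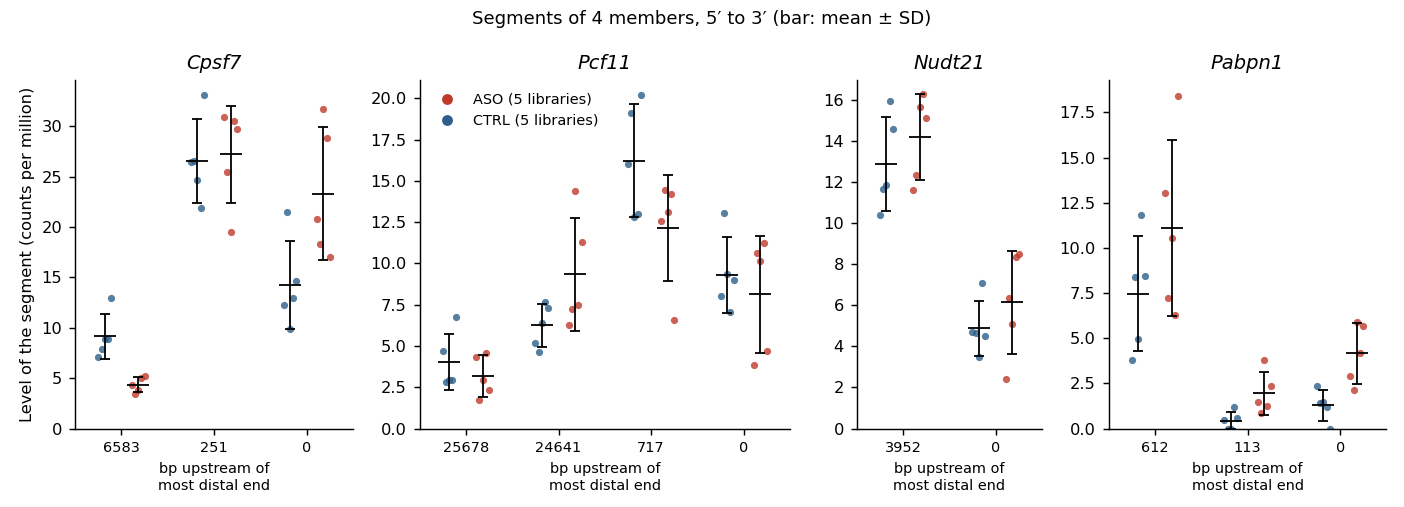
Level in CPM of each segment with at least 20 counts in 4 of the factors, ordered from 5′ to 3′ and labelled by the distance in bp from the most distal end (CTRL in blue, ASO in red, bars for mean and SD). In Cpsf7 the segment 6583 bp upstream is lower in every ASO library, in Pcf11 the segment 24641 bp upstream has the higher mean in ASO, and in Pabpn1 most counts lie on the intronic segment 612 bp upstream.

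The other genes of the pathway were taken from 6 lists. Of the 11 further genes of the core machinery, all were tested, 2 were higher and 2 lower, and the median of their log2 fold changes was 0.18. *Sympk*, the scaffold symplekin, rose from 70.0 ± 9.78 to 112 ± 28.4 CPM (log2 fold change 0.67, adjusted p = 0.017) and *Cpsf1*, the largest CPSF subunit, from 38.4 ± 5.74 to 54.9 ± 5.76 CPM (0.52, 0.017). The poly(A) polymerase genes *Papola* and *Papolg* fell, by 0.71 and 0.86 on the log2 scale (adjusted p = 0.0092 and 0.017). *Papola* was at 82.1, 91.7, 68.5, 66.4 and 71.2 CPM in ASO and at 98.6, 92.8, 127.4, 144.0 and 157.8 CPM in CTRL, without overlap of the groups. *Cpsf3*, the endonuclease that makes the cut, did not pass (0.33, adjusted p = 0.14).

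Of 7 poly(A)-binding genes, 3 were tested, with a median of 0.34. *Pabpc1*, the main cytoplasmic poly(A)-binding protein, was higher, at 65.7, 93.4, 116.7, 74.3 and 79.2 CPM in ASO and 32.5, 49.4, 57.8, 41.3 and 49.4 CPM in CTRL (log2 fold change 0.90, adjusted p = 0.0047). The groups were separate. Of 19 genes of termination and transcription coupling, 14 were tested, 2 were higher and 2 lower, with a median of -0.17. *Paf1* and *Ctr9*, subunits of the elongation complex PAF1C, had log2 fold changes of 1.04 and 0.52 (adjusted p = 0.0012 and 0.017). For *Rprd1b*, which binds the tail of RNA polymerase II, the value was -2.37 (adjusted p = 0.00011). For *Cdk12*, a kinase of that tail, it was -1.02 (adjusted p = 0.017). Of the *Rprd1b* counts, 99.5% came from 57230 bp before the distal end of the gene. That end alone was not tested, so -2.37 does not describe it.

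The regulators of poly(A) site choice, RNA-binding proteins that are not part of the machinery, had the lowest median of the 6 lists, -0.57 over 16 tested of 20 genes, with 8 lower and 1 higher. The muscleblind genes *Mbnl2* and *Mbnl1*, splicing and polyadenylation regulators of muscle, fell by 2.41 and 1.13 on the log2 scale (adjusted p = 0.0014 and 0.0018). *Mbnl2* was at 5.31, 36.5, 11.8, 9.18 and 7.54 CPM in ASO and at 80.6, 88.1, 56.3, 77.9 and 74.1 CPM in CTRL. *Rbfox1*, *Ptbp1*, *Tardbp*, *Snrpa* and *U2af2* fell by 1.47, 1.39, 0.86, 0.58 and 0.54 (adjusted p = 0.00084, 0.012, 0.0036, 0.020 and 0.013), and *Srsf3* rose by 0.52 (adjusted p = 0.032). Of 17 deadenylase genes tested, 0 were higher by edgeR (1 at an unadjusted p of 0.05 and 1 by DESeq2) and 2 lower, *Cnot2* (-1.03, adjusted p = 0.00047) and *Btg1* (-1.23, 0.033), with a median of -0.22. Of 9 genes tested for the Integrator complex and histone 3′ ends, 0 were higher on the summed counts by edgeR, DESeq2 or limma-voom or at an unadjusted p of 0.05. On these counts 1 was lower, *Ints2* (-1.06, 0.034), with a median of -0.06.

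**Figure D5:**
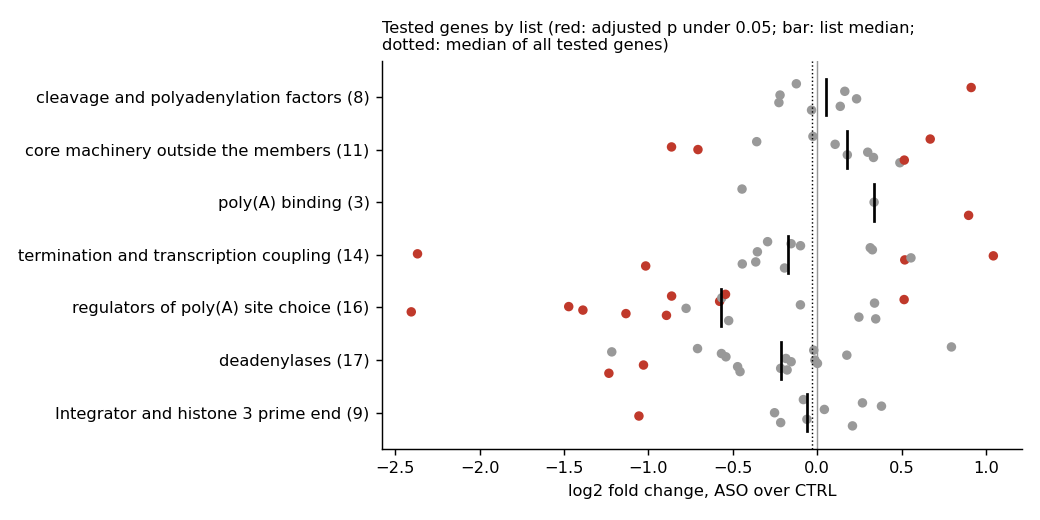
Log2 fold change, ASO over CTRL, of the tested genes of each list, with the number tested in parentheses, genes past the threshold in red and the list median as a bar; the dotted line is the median of all tested genes. The 8 tested factors scatter around 0 with Pabpn1 apart, and the regulators of poly(A) site choice have the lowest median (-0.57).

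Where a gene's counts lie went along with its direction. The segment with the most counts was not the most distal in 36.1% of the 7819 tested genes, in 62.5% of the 1365 lower genes and in 22.5% of the 916 higher genes. That was so in 14 of the 16 tested regulators, in 7 of the 8 lower ones, in 4 of the 11 other core genes and in 5 of the 8 tested factors. Fitted on the most distal segment alone, 4 of the 16 regulators could be tested. *Mbnl1*, *Mbnl2* and *Rbfox1* were not among them. *Sympk*, *Papola*, *Rprd1b*, *Cnot2* and *Btg1* could not be tested in this way either, so their changes do not describe their distal ends. Of the *Sympk* counts, 90.2% came from 2865 bp upstream. With the library scaling of the summed counts, a fit added after seeing the data, 23.7% of 5534 genes passed, 962 higher and 347 lower. Of the 4 regulators *Snrpa* was lower (-0.58, edgeR adjusted p = 0.024) and *Rbfox2*, named after its values were seen, higher (0.50, 0.036). Of 5 tested genes of the Integrator list *Ints4*, also named after its values were seen, was higher (0.57, edgeR adjusted p = 0.044). *Ints2*, lower in sum, did not pass there (-0.07, 0.95). *Pabpc1*, *Cpsf1*, *Paf1* and *Ctr9* were higher in this fit (adjusted p = 0.0086, 0.023, 0.0023 and 0.023), and *Papolg* and *Cdk12* did not pass (0.23 and 0.085). *Snrpa*, *Cpsf1*, *Paf1* and *Ctr9* hold all their counts on the most distal segment, and *Pabpc1* 96.2%. For the former this fit repeats the summed result and is no check on segment position. Of 6 tested factors 0 passed in edgeR, with 1 at an unadjusted p of 0.05, and the distal segment of *Cpsf7* had a log2 fold change of 0.71 (adjusted p = 0.061). *Pabpn1* was not among these 6, since its distal counts did not pass the filter. When the distal counts were instead scaled among themselves, genes with 1 segment, whose counts are the same in both tables, came out lower by a median of 0.25 on the log2 scale over 2564 genes. On that scale *Pabpc1*, *Cpsf1* and *Ctr9* did not pass (adjusted p = 0.056, 0.17 and 0.21), *Paf1* was higher (0.79, 0.0064), *Ssu72*, a phosphatase of the core machinery named after its values were seen, was lower (-0.61, 0.032), and 0 of 6 factors passed, with 0 also at an unadjusted p of 0.05. The part of segment position in the lower totals was not tested.

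Markers of cell types also moved with the treatment. Of 10 skeletal muscle markers, 6 were tested and 5 were higher in ASO (median of the log2 fold changes 0.89). With the most distal segment alone on the same scale 4 were higher (median 0.82), and 2 with the distal counts scaled among themselves (0.58). The 4, *Actn3*, *Atp2a1*, *Myoz1* and *Tnnc2*, hold all their counts on that segment, so the fit on the same scale repeats their summed result. *Ckm*, with 97.6% of its counts 1257 bp upstream, had 0.93 in sum. Its distal segment gave 0.21 on the same scale (edgeR adjusted p = 0.51). *Tnnt3*, *Mylpf*, *Pygm* and *Mb* were listed at 0 counts in all libraries. The summed level of the 10 was between 114000 and 190700 CPM in ASO and between 56750 and 109600 CPM in CTRL, without overlap. In the macrophage list 1 of 4 tested markers was lower (*Mrc1*) and in the adipocyte, blood, endothelial, Schwann cell and fibroblast lists 0 of 16 were called by edgeR, DESeq2 or limma-voom (edgeR gave 1 lower at an unadjusted p of 0.05). The summed adipocyte level was between 712.9 and 3576 CPM in ASO and between 842.3 and 12870 CPM in CTRL. The part of muscle RNA content in the higher level of *Pabpn1* was not tested.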

How the data were processed

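Gastrocnemius RNA of 5 ASO and 5 CTRL mice was sequenced as paired ends from stranded mRNA libraries. The authors used fastp for trimming, STAR for alignment to GRCm39 and featureCounts for counting of read pairs, and deposited raw counts without normalization, 1 row per transcript, over at most 500 bp at the end of its 3′UTR in Gencode M25. Another 4 columns of per-sample values were left out. Here, segments were assigned to genes with GENCODE M39 on GRCm39 (62 of 52423 segments, with 0.0197% of the counts, were not found), and 63.9% of segments end at the same base as their M39 transcript. Counts were summed per gene.

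The gene test was that of edgeR 4.0.16 under R 4.3.3 (TMM, filterByExpr by group, quasi-likelihood test, Benjamini-Hochberg adjustment over all tested genes, threshold 0.05); CPM values are TMM-scaled. Segment usage was tested with diffSpliceDGE, which compares each segment with its gene. The index used segments with at least 200 bases that no other segment covers, genes with at least 50 counts on each side over the 10 libraries, and 0.5 added to each count. DESeq2 1.42.0, limma 3.58.1 (voom, diffSplice), other scalings, filters and left-out libraries were alternatives. The fit of single segments, and that of the most distal segment with the library scaling of the summed counts, were added after seeing the data. Similarity between genes is Pearson's r of log2(CPM + 1). Figures were drawn with matplotlib 3.10.9.

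The 10 factors and all lists were chosen with earlier results of these data known, so a pattern in them is a description of these libraries. All 10 factors are named, of each wider list up to 8 genes past the threshold by smallest adjusted p, and *Cpsf3*, *Ssu72*, *Rbfox2* and *Ints4* after their values were seen. Totals of 1606909 to 2632560 counts per library set the precision. Nothing in the sources ties a library to more than its mouse, so p-values cover the spread between the 5 mice of each group.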

Additional observations from a re-analysis of the deposited data

How the results depend on the processing

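The number of factors past the threshold was 1 higher and 0 lower, and it stayed so with RLE or upper-quartile scaling, with at least 10 counts in every library, with DESeq2 and with libraries drawn down to the smallest. It was 0 higher with total counts, without the filter, in limma-voom, with the most distal segment alone, with the index as covariate and with the replicate block, and 0 to 1 when a library was left out. *Pabpn1* could not be tested on its most distal segment alone, so the 0 of that fit is not a loss of its call. With each segment on its own, 1 factor had a higher segment and 1 had a lower segment, and both were segments of *Cpsf7*. Genes higher were 528 with total counts, which shift the median of all genes by -0.18, and 322 higher and 507 lower with the most distal segment alone, where 5534 genes could be tested, against 916 and 1365. With the library scaling of the summed counts kept, the same segments gave 962 higher, 347 lower and 0 factors, again without a test of *Pabpn1*. With the index as a covariate 0 were higher and 0 lower; the index separates the groups. Leaving out a library gave 691 to 1021 higher and 1126 to 1370 lower genes. The log2 fold change changed sign, without passing the threshold, in *Nudt21* (-0.016) and *Cpsf7* (-0.038) with total counts, in *Cpsf6* with upper quartile (0.051), DESeq2 (0.0041), the most distal segment with the scaling kept (0.074) and over -0.11 to 0.15 when a library was left out, and in *Cstf3* over -0.044 to 0.39 when a library was left out. *Cstf3* has 1 segment, so its sign change in the fit of most distal segments (-0.0097) comes from the scaling of that fit, which lowers genes with 1 segment by 0.25. The cause of the other changes was not tested.

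The index difference was 1.19 to 1.39 over its alternatives and 1.20 to 1.44 when a library was left out. Segments used more were 433 and used less 1206; they were 1499 and 1640 in limma's diffSplice, 289 and 630 with at least 10 counts on the segment in every library, and 262 to 451 and 1025 to 1284 when a library was left out, the lowest without CTRL replicate 5 (262) and CTRL replicate 4 (268).

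The replicate numbers were not taken as pairs: the correlation of deviations between libraries of the same number was -0.43, 0.06, 0.05, 0.06 and 0.17, and no library correlated best with its own number. With the replicate number as a block, 663 genes were higher and 1175 lower, 0 factors were higher, *Pabpn1* had a log2 fold change of 0.88 (adjusted p = 0.104), and 386 segments were used more and 1171 less. Paired sign flips of the index difference of 1.33 gave an exact p of 0.0625, the smallest that 5 pairs allow.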
